A study of Mus musculus with 12 samples.

Results

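Mitochondrial protein import genes were described in activated CD4 T cells of mice in which Rnmt, the gene of the mRNA cap methyltransferase RNMT, is deleted in T cells. The genes were chosen by name, as every symbol beginning with Tomm or Timm in the study's table of expressed genes together with Samm50, Pam16, Dnajc19, Grpel1, Grpel2, Hspa9, Pmpca, Pmpcb, Chchd4 and Gfer, which gave 31 of 10126 genes. Naive CD4 T cells were isolated from the lymph nodes of female mice of unstated age and cultured for 20 h on plates coated with anti-CD3 at 5 ug/ml and anti-CD28 at 1 ug/ml. Control cells carried floxed Rnmt alleles without Cre (Rnmt fl/fl CD4cre -), and Rnmt cKO cells carried the same alleles with Cre driven by the Cd4 promoter (Rnmt fl/fl CD4cre +), so that both genotypes were homozygous for the floxed allele, in which loxP sites surround exon 3. The control mice carried no Cre, so deletion of Rnmt and presence of Cre cannot be told apart. All cells received 0.1 mg/ml cycloheximide for 1 minute before lysis. Total cytoplasmic RNA and ribosome-protected fragments (RPF, the stretches of mRNA that a ribosome covers) were sequenced from 3 control and 3 Rnmt cKO samples, which gave 12 libraries in 4 groups.

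Most mitochondrial proteins are made in the cytosol and enter the organelle through a chain of protein machines. The TOM complex of the outer membrane receives precursors and passes them on, to the SAM complex for outer-membrane barrels, to the small TIM chaperones and the disulfide relay of the intermembrane space, to the TIM22 complex for carriers of the inner membrane, or to the TIM23 complex for proteins with a cleavable presequence. The PAM motor, built around the mitochondrial Hsp70 protein Hspa9, pulls the chain into the matrix, where the processing peptidase (MPP) cuts the presequence off. T cells enlarge their mitochondrial mass when they are activated, and RNMT methylates the guanosine cap at the start of mRNAs, to which translation factors bind.

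A total RNA library held 15079703 to 22629563 reads on genes and an RPF library 4123271 to 10661356. The import genes held 48793 to 77393 of the counts of a total RNA library and 14600 to 39376 of those of an RPF library. Positions are those of GRCm38, the build of the deposited counts. Levels are given as CPM, the counts of a gene per 1000000 counts of the library size after TMM scaling, and fold changes as log2 of Rnmt cKO over control. They are relative to the RNA sequenced, so that a change in the mRNA content of a cell is not included. The study measured less mRNA per activated Rnmt cKO cell than per control cell. It states that rises of single genes are therefore overestimated and falls underestimated. Rises and falls below are thus shares of the RNA, and levels per cell were not tested. In such bulk samples fewer cells that express a gene and less RNA per cell cannot be told apart. Rnmt itself had 95.5, 94.1 and 94.3 CPM in total RNA of the controls and 29.3, 32.4 and 30.4 CPM in that of the Rnmt cKO libraries. In RPF it had 104, 87.9 and 98.9 CPM and then 10.5, 10.4 and 9.60 CPM. Rnmt levels of the genotypes did not overlap, and the lower ones were in the libraries labelled Rnmt cKO.

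All 5 markers of activated CD4 T cells (Cd3e, Cd3g, Cd4, Cd28 and Il2ra) were found in every library, with a summed level of 2110 to 2250 CPM in total RNA of controls and 1900 to 2100 CPM in that of Rnmt cKO cells, and of 3520 to 3970 and 3140 to 3420 CPM in RPF. Within this sum Cd3g, a chain of the T cell receptor complex, fell in total RNA from 451 ± 20.9 to 193 ± 29.4 CPM (SD, n = 3; log2 fold change -1.23, adjusted p = 7.5e-05 by edgeR), and Il2ra, the alpha chain of the interleukin 2 receptor, rose from 176 ± 10.2 to 310 ± 53.1 CPM (SD, n = 3; 0.81, adjusted p = 0.00072). The 3 B cell markers (Cd79a, Cd79b and Ms4a1) summed to 5.20, 3.76 and 17.7 CPM in total RNA of the controls and to 46.6, 57.6 and 12.1 CPM in that of the Rnmt cKO samples, with Ms4a1 the most abundant at up to 41.1 CPM. They summed to 7.42, 6.78 and 22.9 CPM in control RPF and to 79.8, 92.2 and 12.1 CPM in Rnmt cKO RPF. Rnmt cKO replicates 1 and 2 thus stood above all controls, while replicate 3 lay within their range. The 2 CD8 T cell markers summed to 21.4, 21.4 and 41.7 CPM in total RNA of the controls and to 26.4, 21.3 and 9.85 CPM in that of the Rnmt cKO samples. In RPF they summed to 29.5, 29.2 and 53.7 CPM and then 38.6, 27.8 and 15.3 CPM, so that Rnmt cKO replicate 3 lay below every control in both kinds. The 4 myeloid markers summed to 1.02 to 1.49 CPM in control and 0.994 to 2.38 CPM in Rnmt cKO total RNA, which overlapped, and to 3.43 to 4.41 and 2.46 to 2.93 CPM in RPF, which did not. Cd68 was the most abundant of them in every library. The 2 NK cell markers summed to 0.0539 to 0.106 CPM in total RNA of controls and to 0.648 to 1.08 CPM in that of Rnmt cKO cells, and to 0 to 0.245 and 0.984 to 1.76 CPM in RPF, without overlap in either kind. The part of such cells in the differences between genotypes was not tested. For the B cell markers, results are also given for Rnmt cKO replicate 3 alone against the 3 controls, a comparison chosen after these values were seen, in which that single sample is assumed to vary as the controls do.

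In total RNA, 13 of the 31 import genes rose in Rnmt cKO cells and 5 fell, by edgeR's quasi-likelihood test with a Benjamini-Hochberg adjusted p under 0.05, and 13 did not pass. Of 11519 genes tested in total RNA, 26.3% were increased and 28.0% decreased, beside 41.9% and 16.1% of the import genes. Their median log2 fold change was 0.06, and that of all genes tested was -0.00. In RPF, 6 of 30 import genes rose and 0 fell (edgeR; 2 at an unadjusted p under 0.05, Timm8b and Tomm7, and 0 by DESeq2 or the exact test), where 14.1% and 15.7% of 11428 genes were increased and decreased. Another import gene, Pam16, had too few RPF counts to be tested. The median log2 fold change in RPF was 0.02 for import genes and 0.01 for all genes. Translational efficiency (TE), the change in RPF relative to that in total RNA, fell for 5 of 30 import genes and rose for 2, where 6.57% and 3.24% of 10668 genes were decreased and increased. The median in TE was 0.08 for import genes and 0.04 for all genes. With Rnmt cKO replicate 3 alone, all 18 genes called in total RNA, all 6 in RPF and all 7 in TE kept their sign. The 5 that fell in total RNA then had log2 fold changes of -0.27 (Timm44), -0.26 (Tomm40l), -0.22 (Tomm22 and Timmdc1) and -0.18 (Tomm34). Calls of single genes in this comparison are not listed, since 1 sample cannot show the spread of its group.

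**Figure D1:**
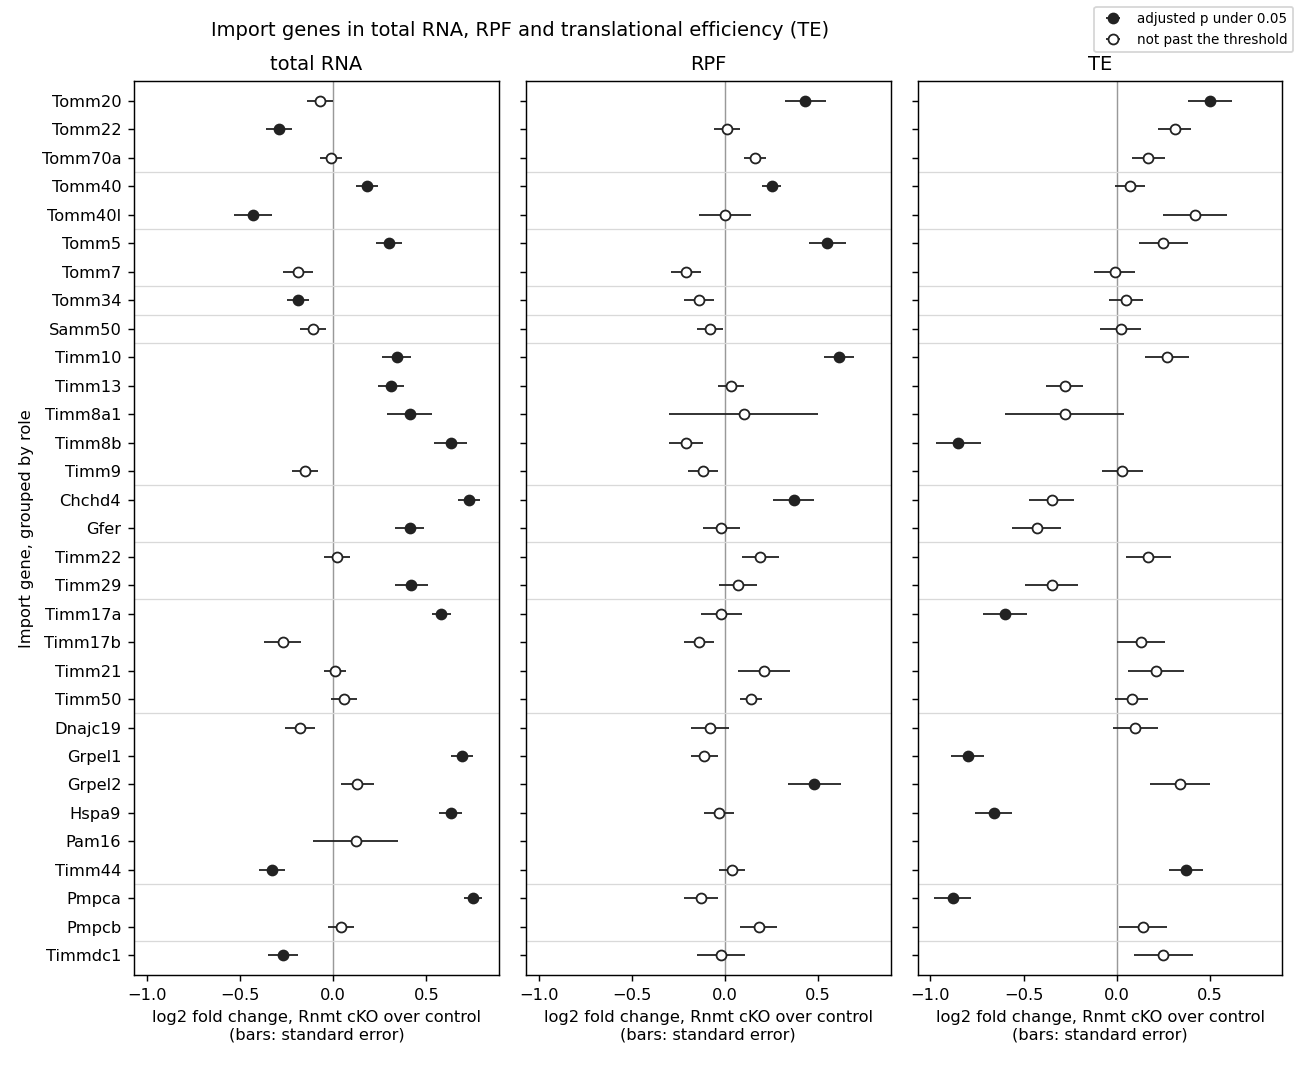
Log2 fold change of Rnmt cKO over control (horizontal axis) for each of the 31 import genes (vertical axis, grouped by role from the outer membrane at the top to the matrix peptidase, with Timmdc1 last) in total RNA, RPF and TE. Points are estimates, bars are standard errors, and filled points passed an adjusted p of 0.05. In total RNA 13 filled points lie right of 0 and 5 left of it, and in RPF 6 lie right and none left.

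Of the 13 genes that rose in total RNA, 4 also rose in RPF (Chchd4, Timm10, Tomm40 and Tomm5) and 9 did not pass the test there. Among all genes, 2791 rose in total RNA and were tested in RPF, and 40.9% of these also rose there. The median log2 fold change of the 13 was 0.42 in total RNA and 0.03 in RPF. Of the 5 genes that fell in total RNA (Timm44, Timmdc1, Tomm22, Tomm34 and Tomm40l) none passed the test in RPF, where 44.4% of the 3089 genes that fell in total RNA and were tested in RPF also fell, with medians of -0.29 and 0.00 for the 5. These 2 groups were formed by their total RNA values, so their medians are descriptions, and TE is computed with the same total RNA libraries. Import genes as a whole held 0.385 ± 0.00764% of the protein-coding counts of total RNA in controls and 0.452 ± 0.00800% in Rnmt cKO cells (SD, n = 3). In RPF they held 0.385 ± 0.00800% and 0.406 ± 0.00971% (SD, n = 3). The Rnmt cKO shares lay above all controls in both kinds of library. Hspa9 alone made up 19.9 ± 0.115% of the import counts of total RNA in controls and 25.8 ± 0.764% in Rnmt cKO cells, and 22.5 ± 0.945% and 21.2 ± 0.866% of those of RPF (SD, n = 3). Without Hspa9 the shares were 0.308 ± 0.00656% and 0.335 ± 0.00874% in total RNA and 0.298 ± 0.00321% and 0.320 ± 0.00608% in RPF (SD, n = 3), again without overlap in either kind.

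Per kilobase of exon, Hspa9 had the highest level of the 31 genes in control total RNA, at 182 CPM per kb. It was followed by Timm8b with 122, Tomm7 with 98.4, Tomm40 with 80.9 and Pmpcb with 71.7 CPM per kb. The lowest levels were those of Grpel2, Timm8a1 and Pam16, at 4.73, 4.09 and 2.62 CPM per kb. The scale divides the counts by the summed exon length of all annotated transcripts, so that genes with long or rarely used exons are set low.

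Of the 3 receptors of the TOM complex, Tomm20 rose in RPF and TE, and Tomm22 fell in total RNA. Tomm20 (chr8:126930667-126945844), which recognises presequences, had 61.6, 64.2 and 58.1 CPM in total RNA of controls and 56.2, 61.5 and 57.0 CPM in that of Rnmt cKO cells. In RPF it had 34.3, 32.1 and 37.9 CPM and then 41.9, 48.3 and 50.9 CPM. The genotypes overlapped in total RNA and not in RPF. Its log2 fold change was -0.07 (standard error, SE, 0.07, adjusted p = 0.38) in total RNA, 0.43 (SE 0.11, adjusted p = 0.017) in RPF and 0.50 (SE 0.12, adjusted p = 0.022) in TE. The rise in RPF was not past the threshold without control replicate 1 or 2 or Rnmt cKO replicate 2, and the rise in TE without these or Rnmt cKO replicate 3, while the log2 fold change stayed between 0.37 and 0.52 in RPF and between 0.42 and 0.60 in TE over 15 alternatives. Tomm22, the central receptor that organises the complex, fell in total RNA from 112 ± 8.54 to 91.7 ± 3.55 CPM (SD, n = 3), a log2 fold change of -0.29 (adjusted p = 0.0084). TE of Tomm22 passed the test only without control replicate 3 (log2 fold change 0.39, adjusted p = 0.033). Its RPF level was 73.2 ± 2.21 and 73.7 ± 3.10 CPM (SD, n = 3). Tomm70a, the receptor for carrier precursors, had 352 ± 13.4 and 348 ± 9.96 CPM in total RNA (SD, n = 3), and none of its 3 comparisons passed the test.

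The channel of the complex, Tomm40 (chr7:19701313-19715438), had 136, 142 and 129 CPM in total RNA of controls and 154, 157 and 150 CPM in that of Rnmt cKO cells. RPF levels were 222, 216 and 213 CPM and then 252, 266 and 256 CPM. All Rnmt cKO libraries lay above all controls in both kinds, by log2 fold changes of 0.18 (SE 0.06, adjusted p = 0.025) and 0.25 (SE 0.05, adjusted p = 0.010). The call in total RNA was lost without control replicate 1 or 3 or Rnmt cKO replicate 1, without a low-count filter and with a replicate block, with log2 fold changes of 0.14 to 0.22 over 15 alternatives. The call in RPF was lost without the filter or with reads of both strands (0.19 to 0.27). The small subunit Tomm5 (chr4:45105208-45108114) had 56.7, 58.0 and 50.6 CPM in control and 65.3, 68.5 and 69.2 CPM in Rnmt cKO total RNA. Its RPF levels were 61.3, 49.0 and 53.0 CPM and then 73.6, 80.2 and 86.6 CPM. It was higher in every Rnmt cKO library, by 0.30 in total RNA (SE 0.07, adjusted p = 0.0083) and 0.55 in RPF (SE 0.10, adjusted p = 0.0054). Tomm7 (chr5:23838944-23844161), another small subunit, had 109, 118 and 105 CPM in control and 95.5, 89.3 and 106 CPM in Rnmt cKO total RNA, which overlapped. Its RPF levels of 84.2, 78.5 and 75.9 CPM and then 68.6, 73.7 and 63.5 CPM did not overlap, but neither difference passed the test (adjusted p = 0.067 and 0.084), although that in total RNA did without Rnmt cKO replicate 3 (log2 fold change -0.25, adjusted p = 0.021). Tomm34, a cytosolic co-chaperone of precursors, fell by 0.19 on the log2 scale in total RNA (adjusted p = 0.023), a call that was lost by DESeq2, without TMM scaling, without a low-count filter, with a replicate block, without control replicate 1 or 2 and without any single Rnmt cKO replicate, with log2 fold changes of -0.22 to -0.16. Samm50, the core of the SAM complex, passed no test, with log2 fold changes of -0.11, -0.08 and 0.02 in total RNA, RPF and TE.

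In the intermembrane space, 4 of 5 small TIM chaperones rose in total RNA, 1 of which (Timm8a1) lost its call under 4 of 15 alternatives, and both genes of the disulfide relay that folds them, where 26.3% of all genes rose. Chchd4 (chr6:91462172-91473546), the oxidoreductase of the relay, had 42.4, 40.1 and 41.1 CPM in control total RNA and 67.5, 69.2 and 68.4 CPM in Rnmt cKO total RNA. Among RPF libraries the levels were 46.8, 48.8 and 45.5 CPM and then 56.8, 70.2 and 54.6 CPM. Both kinds were separated by genotype, with log2 fold changes of 0.73 (SE 0.06, adjusted p = 4.3e-05) and 0.37 (SE 0.11, adjusted p = 0.031). The RPF call was lost without any single control replicate or Rnmt cKO replicate 2, with log2 fold changes of 0.25 to 0.44 over the alternatives. With Rnmt cKO replicate 3 alone the log2 fold change in RPF was 0.21. TE of Chchd4 passed the test only without Rnmt cKO replicate 2 (log2 fold change -0.48, adjusted p = 0.013), and not with all samples (-0.35, adjusted p = 0.083). Gfer, the sulfhydryl oxidase that recharges Chchd4, rose in total RNA from 57.2 ± 3.50 to 76.0 ± 5.83 CPM (SD, n = 3), a log2 fold change of 0.41 (adjusted p = 0.0028), and its RPF level was 50.1 ± 4.06 and 49.7 ± 5.16 CPM (SD, n = 3). Its log2 fold change in TE of -0.43 missed the threshold (adjusted p = 0.060) but passed it with a block for the sample from which each pair of total RNA and RPF libraries came (log2 fold change -0.42, adjusted p = 0.026) and by DESeq2 (-0.44, adjusted p = 0.039).

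Among the small TIM chaperones, which escort hydrophobic precursors, Timm10 (chr2:84826997-84830213) had the highest RPF estimate of the import genes chosen by name. Tomm5 was close to it, and stood above it without control replicate 1 (0.64 against 0.62 on the log2 scale), without Rnmt cKO replicate 1 (0.61 against 0.58) and with Rnmt cKO replicate 3 alone (0.66 against 0.58). Timm10 had 44.4, 42.0 and 45.0 CPM in control and 52.8, 51.3 and 61.4 CPM in Rnmt cKO total RNA. Its levels in RPF were 64.4, 56.8 and 65.7 CPM and then 99.6, 91.9 and 93.5 CPM. Neither kind overlapped, with log2 fold changes of 0.34 (SE 0.08, adjusted p = 0.010) and 0.61 (SE 0.08, adjusted p = 0.0012). Its partner in the chaperone hexamer, Timm9, had log2 fold changes of -0.15, -0.12 and 0.03 in total RNA, RPF and TE, none past the test. Timm8b (chr9:50603910-50605320) had 69.3, 61.3 and 58.2 CPM in control and 96.0, 90.6 and 106 CPM in Rnmt cKO total RNA. Its RPF level was 43.1, 44.0 and 41.9 CPM and then 35.0, 39.8 and 36.2 CPM. The Rnmt cKO libraries lay above all controls in total RNA and below all controls in RPF, with log2 fold changes of 0.63 (SE 0.09, adjusted p = 0.00061) and -0.21 (SE 0.09, adjusted p = 0.095), and its TE fell by 0.85 on the log2 scale (SE 0.12, adjusted p = 0.00070). Timm13, the partner of the Timm8 proteins, rose by 0.31 in total RNA (adjusted p = 0.0047) with an RPF log2 fold change of 0.03. Timm8a1 (chrX:134537256-134541865) had only 5.73, 5.51 and 6.20 CPM in control and 7.13, 8.31 and 7.73 CPM in Rnmt cKO total RNA. Its RPF levels of 0.939, 1.51 and 1.47 CPM and then 1.17, 1.66 and 1.23 CPM overlapped. It rose in total RNA by 0.41 (SE 0.12, adjusted p = 0.018), a call lost without control replicate 1 or 2, without a low-count filter and with a replicate block (0.37 to 0.48 over the alternatives), and its RPF log2 fold change was 0.10 with an SE of 0.40.

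**Figure D2:**
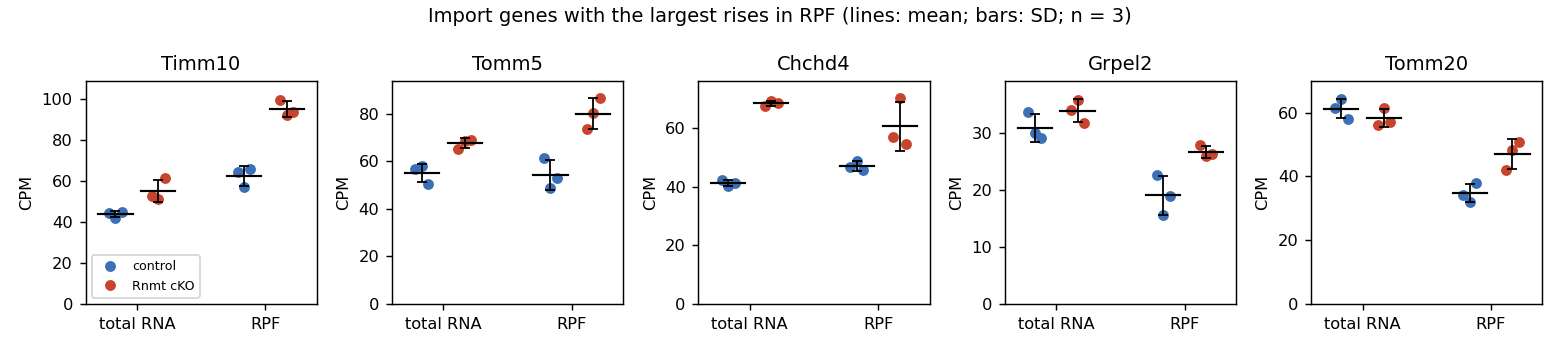
CPM in each library (points), with mean and SD of 3 libraries, for the 5 import genes with the largest rises in RPF. RPF points of Rnmt cKO cells lie above all control points in each gene, while in total RNA the genotypes overlap for Grpel2 and Tomm20.

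At the inner membrane, the TIM22 complex inserts carriers and the TIM23 complex passes presequence proteins. Timm22, the channel of the former, had 60.6 ± 3.68 and 61.3 ± 2.19 CPM in total RNA (SD, n = 3) and passed no test. Its subunit Timm29 rose in total RNA from 42.2 ± 0.862 to 56.5 ± 6.82 CPM (SD, n = 3), a log2 fold change of 0.42 (adjusted p = 0.0055), with 44.0 ± 4.58 and 46.2 ± 2.32 CPM in RPF (SD, n = 3). In the TIM23 complex, Timm17a (chr1:135295213-135313778) had 76.2, 74.6 and 74.9 CPM in control and 108, 116 and 113 CPM in Rnmt cKO total RNA. Its RPF levels were 73.9, 61.2 and 67.1 CPM and then 64.5, 74.9 and 59.1 CPM. The genotypes were separated in total RNA, by a log2 fold change of 0.58 (SE 0.05, adjusted p = 9.5e-05), and overlapped in RPF (-0.02, SE 0.11, adjusted p = 0.89). TE of Timm17a fell by 0.60 on the log2 scale (SE 0.12, adjusted p = 0.0066). Timm50, the receptor of the complex, and Timm21 passed no test, with log2 fold changes of 0.06 and 0.01 in total RNA and of 0.14 and 0.21 in RPF.

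The motor on the matrix side held the most abundant import mRNA, and 2 of its 6 genes rose in total RNA and 1 fell, where 26.3% and 28.0% of all genes did. Hspa9 (chr18:34937414-34954357), the ATP-driven Hsp70 of the motor, had 559, 560 and 544 CPM in control and 876, 858 and 834 CPM in Rnmt cKO total RNA. In RPF it had 848, 812 and 750 CPM and then 797, 834 and 725 CPM. Total RNA was higher in every Rnmt cKO library, by 0.63 (SE 0.06, adjusted p = 7.1e-05), whereas RPF overlapped (-0.03, SE 0.08, adjusted p = 0.78), and TE fell by 0.66 on the log2 scale (SE 0.10, adjusted p = 0.00079). Grpel1 (chr5:36464998-36474080), the nucleotide exchange factor that resets Hspa9, had 98.3, 95.3 and 94.4 CPM in control and 151, 148 and 166 CPM in Rnmt cKO total RNA. Its RPF levels were 161, 167 and 167 CPM and then 153, 163 and 142 CPM. It too was separated in total RNA, by 0.69 (SE 0.06, adjusted p = 7.1e-05), and overlapped in RPF (-0.11, SE 0.07, adjusted p = 0.24), and its TE fell by 0.80 on the log2 scale (SE 0.09, adjusted p = 0.00014). Timm44, which tethers the motor to the TIM23 channel, went the other way. It fell in total RNA from 86.6 ± 6.10 to 69.0 ± 1.95 CPM (SD, n = 3; log2 fold change -0.33, adjusted p = 0.0043) and had 95.9 ± 4.32 and 98.6 ± 4.14 CPM in RPF (SD, n = 3). TE of Timm44 rose by 0.37 (SE 0.09, adjusted p = 0.023), a call lost without a low-count filter, control replicate 1 or 2 or Rnmt cKO replicate 1 or 2, with log2 fold changes of 0.31 to 0.44 over the alternatives. The J protein Dnajc19 and its J-like partner Pam16, which together regulate the ATPase of Hspa9, had log2 fold changes of -0.18 and 0.12 in total RNA. Neither passed the test.

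The processing peptidase, which removes presequences, has a substrate-binding subunit, Pmpca, and a catalytic one, Pmpcb. Pmpca (chr2:26389339-26397122) had 104, 105 and 109 CPM in control and 178, 183 and 172 CPM in Rnmt cKO total RNA. Its RPF levels were 119, 125 and 106 CPM and then 115, 106 and 98.2 CPM. The total RNA levels did not overlap, with a log2 fold change of 0.75 (SE 0.05, adjusted p = 2.7e-05), while RPF overlapped (-0.13, SE 0.09, adjusted p = 0.28). TE of Pmpca fell by 0.88 on the log2 scale (SE 0.10, adjusted p = 0.00016). Pmpcb had 116 ± 6.38 and 119 ± 9.89 CPM in total RNA (SD, n = 3) and 144 ± 12.6 and 163 ± 18.4 CPM in RPF (SD, n = 3), and passed no test with all samples, although RPF did without Rnmt cKO replicate 3 (log2 fold change 0.27, adjusted p = 0.049). The last gene, Timmdc1, carries a TIM name but is known as an assembly factor of respiratory complex I. It fell by 0.27 on the log2 scale in total RNA (adjusted p = 0.024), a call lost without control replicate 1 or Rnmt cKO replicate 1 or 2, with log2 fold changes of -0.32 to -0.21.

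Pmpca, Grpel1, Timm8b, Hspa9 and Timm17a thus rose in total RNA, did not pass the test in RPF and fell in TE. For Pmpca the ratio of RPF to total RNA CPM was 1.15, 1.19 and 0.974 in controls and 0.647, 0.578 and 0.570 in Rnmt cKO samples. For Hspa9 it was 1.52, 1.45 and 1.38 and then 0.910, 0.973 and 0.869. The ratio of every Rnmt cKO sample lay below that of every control for all 5 genes, and also for Chchd4, Gfer, Timm13 and Timm29, whose TE did not pass the test. It lay above every control for 8 import genes, of which only Timm44 and Tomm20 passed the test in TE. Over the 10668 genes tested in TE, the ratio lay below every control for 14.9% and above every control for 16.6%. Total RNA and TE calls of the 5 genes held under each of the 15 alternatives tried, with TE log2 fold changes between -0.97 and -0.82 for Pmpca and between -0.71 and -0.63 for Hspa9. In Rnmt cKO replicate 3 the summed B cell markers lay within the range of the controls. They stood above control replicates 1 and 2 and below control replicate 3 in both kinds. The part of B cells in the TE changes was not tested. With Rnmt cKO replicate 3 alone against the controls, TE log2 fold changes were -0.97 for Pmpca, -1.03 for Grpel1 and -1.03 for Timm8b. They were -0.76 for Hspa9 and -0.80 for Timm17a.

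**Figure D3:**
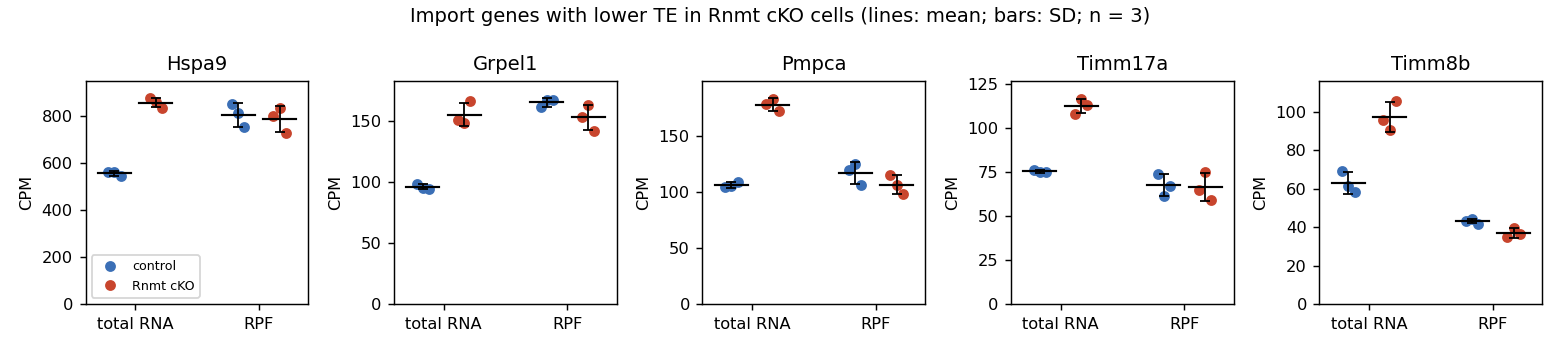
CPM in each library (points), with mean and SD of 3 libraries, for the 5 import genes whose TE fell in Rnmt cKO cells. In total RNA every Rnmt cKO point lies above every control point, and in RPF the genotypes overlap except for Timm8b, where Rnmt cKO points lie lower.

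Several import proteins are encoded by pairs of related genes, whose levels are set side by side here, since the difference between the members of a pair was not tested. Tomm40l (chr1:171216011-171222514), a relative of Tomm40, had 50.4, 49.6 and 42.6 CPM in control and 33.7, 32.7 and 38.9 CPM in Rnmt cKO total RNA. Its RPF levels were 21.1, 18.1 and 19.2 CPM and then 19.9, 16.5 and 22.6 CPM. It was lower in every Rnmt cKO total RNA library, with a log2 fold change of -0.43 (SE 0.10, adjusted p = 0.0062), and overlapped in RPF. The call was lost when reads of both strands were counted (log2 fold change -0.38, adjusted p = 0.094 by edgeR). Such a count adds reads of Nr1i3, a gene that overlaps Tomm40l on the opposite strand. Over the alternatives the log2 fold change of Tomm40l in total RNA was -0.51 to -0.36, and with Rnmt cKO replicate 3 alone it was -0.26. The CPM of Tomm40 was 2.86 ± 0.166 times that of Tomm40l in control total RNA and 4.41 ± 0.494 times in Rnmt cKO total RNA (SD, n = 3), and in RPF 11.2 ± 0.719 and 13.4 ± 2.5 times (SD, n = 3).

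Timm17b (chrX:7899357-7908351), the other form of Timm17, had 54.3, 54.1 and 46.8 CPM in control and 41.5, 38.7 and 48.4 CPM in Rnmt cKO total RNA. Its RPF had 90.5, 98.6 and 90.0 CPM and then 86.7, 77.8 and 88.8 CPM. Total RNA overlapped and RPF did not, and neither difference passed the test (adjusted p = 0.053 and 0.20). That in total RNA passed it without control replicate 3 (log2 fold change -0.34, adjusted p = 0.033), without Rnmt cKO replicate 3 (-0.36, adjusted p = 0.011), without a low-count filter (-0.28, adjusted p = 0.015) and by the exact test of edgeR (-0.27, adjusted p = 0.044). The ratio of Timm17a to Timm17b CPM was 1.40, 1.38 and 1.60 in control and 2.60, 3.01 and 2.33 in Rnmt cKO total RNA, but 0.816, 0.621 and 0.745 and then 0.744, 0.962 and 0.665 in RPF. The ratio was thus higher in every Rnmt cKO sample in total RNA and overlapped in RPF. Per kilobase of exon, Timm17a stood at 0.478 times Timm17b in control and at 0.866 times in Rnmt cKO total RNA.

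Grpel2 (chr18:61712424-61726325), the second exchange factor of the motor, had 33.7, 30.0 and 29.1 CPM in control and 34.1, 35.9 and 31.9 CPM in Rnmt cKO total RNA. RPF of Grpel2 was 22.6, 15.7 and 19.0 CPM and then 28.0, 26.0 and 26.3 CPM. Total RNA overlapped (log2 fold change 0.13, SE 0.09, adjusted p = 0.22) and RPF was higher in every Rnmt cKO library (0.48, SE 0.14, adjusted p = 0.035). The RPF call was lost without control replicate 2 or 3 or any single Rnmt cKO replicate, with log2 fold changes of 0.35 to 0.61. The ratio of Grpel1 to Grpel2 CPM was 3.11 ± 0.176 in control and 4.58 ± 0.558 in Rnmt cKO total RNA, and 8.87 ± 1.77 and 5.72 ± 0.488 in RPF (SD, n = 3). It was above all controls in total RNA and below all controls in RPF. The ratio of Timm8b to Timm8a1 overlapped in both kinds. In total RNA it was 10.9 ± 1.37 and 12.7 ± 1.57, and in RPF 34.5 ± 9.85 and 27.8 ± 3.27 (SD, n = 3). Timm8a1 had low counts in RPF, and their part in the spread was not tested.

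**Figure D4:**
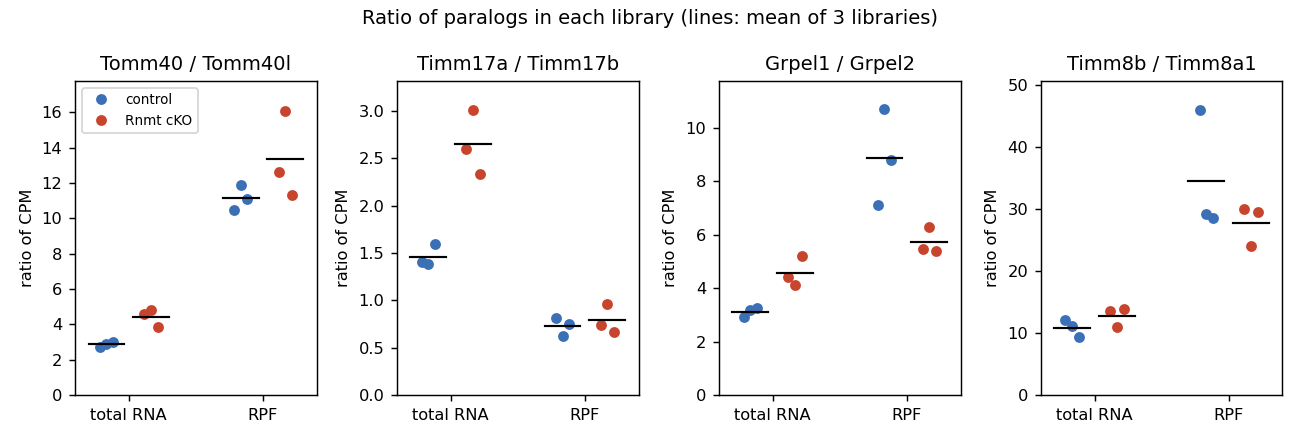
Ratio of the CPM of both genes of each pair (vertical axes) in each library, with points for samples and lines for the mean of 3. In total RNA the Rnmt cKO ratios of Tomm40 to Tomm40l, Timm17a to Timm17b and Grpel1 to Grpel2 lie above all controls, whereas in RPF the ratio of Grpel1 to Grpel2 lies below them.

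The cap methylated by RNMT sits on the first transcribed base, so the annotated starts of import genes were read. The RefSeq promoter table (GRCm38.p6) held 26 of the 31 genes, with 28 starts. None of the 28 had a C followed by 4 bases of C or T as its first bases, a form of the TOP motif of ribosomal protein mRNAs, and 2.51% of all 32851 starts did. The first base was G in 57.1% of import starts and 35.6% of all starts, A in 21.4% and 34.4%, and C in 14.3% and 16.3%. The start windows of the genes called in TE other than Hspa9 are shown from 15 bases before the start to 15 bases after it, with the first 5 transcribed bases in capitals, first those whose TE fell and then those whose TE rose.
Pmpca, chr2:26389333-26389362, plus strand: agcggaagtgaccgcAGAAGcgcggcggcg
Grpel1, chr5:36465170-36465199, plus strand: agtgacgcgacctcgGGGGCagtcatggcg
Timm8b, chr9:50603886-50603915, plus strand: gaaccggaaggcaggAGACGgtgcgctgcc
Timm17a, chr1:135313723-135313752, minus strand: gtgccgtagactctcGCGCGggttggagcc
Timm44, chr8:4275891-4275920, minus strand: gcgacgcaggaaggtCACACgggctcttcc
Tomm20, chr8:126945907-126945936, minus strand: tgcgcaccaggcgttCCCGCgcaggcaccg
The first 4 genes begin with A or G, and the other 2 with C. With 6 genes this is a description only, and the annotated start of RefSeq lay between 0 and 195 bases from the start of the gene in the GENCODE annotation. In the 120 bases before the start, the letters TGACG (the core of a cAMP response element, on either strand) were found in 25.0% of import starts and 11.7% of all starts. They stand 13 bases before the start of Grpel1, within the window above. CCAAT was found in 25.0% and 21.3%, CACGTG in 3.57% and 3.66%, TGCGCA in 7.14% and 4.29%, and CCGGAAGT in 10.7% and 2.22%. The 25.0% stand for 7 of 28 import starts and the 10.7% for 3. All starts were not limited to genes expressed in these cells or matched in base composition. The difference in shares was not tested. These motifs were chosen with the expression values known.

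A further 17 genes of mitochondrial import, processing and folding were listed beside the 31. In total RNA 9 of them fell, 52.9%, and 1, Mtx3, rose, 5.88%, beside 28.0% and 26.3% of all genes, with a median log2 fold change of -0.29. In RPF 2 fell and 1 rose, 11.8% and 5.88% beside 15.7% and 14.1% of all genes, with a median of 0.01. In TE 0 fell (also 0 at an unadjusted p under 0.05 by edgeR, and 0 by DESeq2) and 1 rose, where 6.57% and 3.24% of all genes did, with a median of 0.22. The largest total RNA change was that of Mtch1, an outer-membrane relative of the mitochondrial carriers, which had 54.3, 53.4 and 48.9 CPM in control and 31.6, 27.1 and 30.7 CPM in Rnmt cKO cells (log2 fold change -0.81, SE 0.08, adjusted p = 0.00014). It fell in RPF too, with 44.6, 45.7 and 46.8 CPM and then 33.0, 30.6 and 37.6 CPM, by 0.45 on the log2 scale (SE 0.10, adjusted p = 0.010). Hspe1, the co-chaperonin of the matrix, had 188, 202 and 169 CPM and then 135, 137 and 141 CPM in total RNA (log2 fold change -0.44, SE 0.07, adjusted p = 0.0014). Mtx1, a metaxin of the SAM complex, rose in RPF with 90.7, 88.0 and 87.2 CPM in control and 110, 115 and 113 CPM in Rnmt cKO cells (log2 fold change 0.34, SE 0.06, adjusted p = 0.0041). Oxa1l, an inner-membrane insertase, rose in TE by 0.48 (SE 0.11, adjusted p = 0.017). It had 36.2, 36.1 and 31.2 CPM in control and 26.5, 25.6 and 25.3 CPM in Rnmt cKO total RNA, and 103, 97.7 and 91.4 CPM and then 99.8, 109 and 93.8 CPM in RPF, where alone among these values the genotypes overlapped. Larger estimates that missed the threshold were those of Mtx3 and Immp1l in RPF (0.67 and 0.56, adjusted p = 0.095 and 0.13) and of Immp1l and Hspe1 in TE (0.93 and 0.54, adjusted p = 0.072 and 0.070).

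A pair of other lists of nuclear-encoded mitochondrial genes was set beside the 31 import genes. Of 77 mitochondrial ribosomal protein genes, 26 rose and 14 fell in total RNA, 33.8% and 18.2% beside 26.3% and 28.0% of all genes, with a median log2 fold change of 0.03. In RPF 13 rose and 9 fell, 16.9% and 11.7% beside 14.1% and 15.7%. Of 36 complex I subunit genes 22 fell in total RNA, 61.1%, and 0 rose (also 0 at an unadjusted p under 0.05 by edgeR, and 0 by DESeq2 or the exact test), with a median of -0.25. In RPF 10 fell, 27.8%, and 0 rose (1 at an unadjusted p under 0.05 by edgeR, 1 by DESeq2 and 0 by the exact test). Complex I subunits had a TE median of 0.19, with 4 risen, 11.1%, and 0 fallen (2 at an unadjusted p under 0.05 by edgeR, 0 by DESeq2). Mitochondrial ribosomal proteins had one of 0.10, with 6 risen and 8 fallen, 7.79% and 10.4%, where 3.24% and 6.57% of all genes rose and fell. The difference between these lists and the import genes was not tested.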

How the data were processed

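The authors selected the second read of each pair, trimmed adapters with cutadapt, removed ribosomal RNA and tRNA reads with Bowtie and aligned the rest to mm10 (GENCODE vM12) with STAR 2.5.2b. The deposited counts are raw numbers of uniquely aligned reads for every gene, so that reads shared with near-identical copies were left out, and a table with normalized signal values per library. The deposited signal gave the genes of the table and showed that the reverse-strand counts had been used, since 1 factor per library turned it into these counts to the nearest read for 100% of 10126 genes. Its fold change and p-value columns were not used. Symbols, positions and exon lengths came from GENCODE vM21 (GRCm38) for 49326 of 49585 genes. A further 4 lines of each file name no gene and were left out.

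A gene was kept where 3 or more of 6 libraries exceeded 1 CPM. Libraries were scaled by TMM, and edgeR 4.0.16 (R 4.3.3) tested genotypes by quasi-likelihood. TE was tested as the genotype-by-kind interaction in a model of all 12 libraries, with no term for the sample from which a pair of libraries came. Benjamini-Hochberg adjusted p-values over all genes tested were held to 0.05. The median standard error of the log2 fold change over import genes was 0.07 for total RNA, 0.09 for RPF and 0.12 for TE. On simulated counts, 81.0% of 1.5-fold changes were recovered among 11419 genes for total RNA, 68.2% among 11290 for RPF and 33.8% among 10575 for TE. The simulated counts had the same dispersion for every gene and few changed genes, unlike the data. Recovery in the data can therefore differ from these shares. With 3 samples against 3, an exact permutation test cannot go below 0.1. The labels do not say whether the numbered samples were separate mice, so p-values measure the spread between these samples. Total RNA and RPF libraries of the same genotype and number deviated together (correlations of 0.16, 0.20 and 0.37 in controls and 0.11, 0.37 and 0.29 in Rnmt cKO). They were taken as pairs in the ratios of RPF to total RNA and in the block within genotype. The reported TE p-values do not use this pairing. Replicates differed by more than sampling noise.

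Values of each library are given for the 5 import genes with the largest changes past the threshold in each comparison, 4 pairs of related genes and the 3 highest per kilobase, and for the 2 largest changes past the threshold, where there were as many, among the 17 other import genes in each comparison. The genes, lists and motifs were chosen with earlier results of these data known. A further marker gene of the B cell list is not reported here. Alternatives were DESeq2 1.42.0, edgeR's exact test (not for TE), library size without TMM, no filter, at least 10 counts in every library, both strands, protein-coding genes, the genes of the table, a replicate block, a block within genotype for TE and each replicate left out.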

Additional observations from a re-analysis of the deposited data

Results flagged for a closer look

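Timm23, the channel of the TIM23 complex, was outside the study's table and entered no comparison above, but had a total RNA signal that rose in Rnmt cKO cells. It had 6.84, 6.51 and 5.66 CPM in control and 9.30, 9.75 and 8.94 CPM in Rnmt cKO total RNA, which did not overlap, and its log2 fold change was 0.56 (SE 0.12, adjusted p = 0.0044 by edgeR). In RPF it had 0.188, 0.000 and 0.245 CPM and then 0.702, 0.879 and 0.492 CPM, too little to be tested. Its RPF level lay far below that of the other TIM23 subunits, and only uniquely aligned reads were counted. Whether reads shared with copies of the gene were lost was not tested.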

How the results depend on the processing

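The settings tallied here were the alternatives and Rnmt cKO replicate 3 alone, which was chosen after the marker values were seen. Over all these settings, 212 of 240 counts and medians stayed within 1.5 times the reported count or the spread of the median. Of 717 values of single named genes, 675 kept their side of the threshold, 36 lost it and 6 gained it. None that was past the threshold turned its sign. With each replicate left out in turn, between 3 and 6 import genes fell and between 11 and 13 rose in total RNA. Their median there was 0.01 to 0.09, and between 2585 and 3151 of all genes fell and between 2303 and 3145 rose. In RPF between 3 and 6 import genes rose, beside 1085 to 1414 of all genes. In TE between 5 and 6 import genes fell and between 0 and 3 rose, beside 415 to 812 and 122 to 367 of all genes. Without a low-count filter, 1 import gene and 214 of all genes rose in TE. With Rnmt cKO replicate 3 alone against the controls, 0 import genes fell in total RNA by edgeR, 2 rose in RPF and 0 in TE (1 and 1 in place of the counts of 0 at an unadjusted p under 0.05), where 520 and 477 of all genes fell and rose in RPF and 294 and 81 in TE; fewer samples were compared. For replicate 3 alone, only the counts that left 1.5 times the reported count are given. Its other counts and its medians, import genes risen in total RNA and fallen in TE among them, stayed within the limits above. A single sample cannot show the spread of its group, so no conclusion is drawn from these counts. A replicate block by number across genotypes gave 4 import genes fallen and 11 risen in total RNA, beside 2751 and 2455 of all genes. In RPF 6 import genes rose under this block, beside 1596 of all genes. In TE 5 import genes fell and 2 rose, beside 635 and 313 of all genes. Samples of the same number did not deviate together between genotypes in total RNA (correlations of -0.29, -0.21 and -0.52). Their correlations in RPF were 0.15, -0.05 and -0.06. The block for pairs of total RNA and RPF libraries within genotype gave 6 import genes fallen and 2 risen in TE. Of all genes, 777 fell and 426 rose in that fit. Gfer was the added import gene, and no other call among the import genes changed. Hspa9 and Tomm20 hold small nucleolar RNA genes on the same strand, and Samm50 overlaps another transcript. RPF was read less deeply than total RNA, and the low RPF counts of Timm8a1 and Pam16 limit what they can show.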

Other observations

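Of the other Tomm and Timm genes outside the study's table, Timm10b had 17.6 ± 0.588 CPM in control and 17.6 ± 1.85 CPM in Rnmt cKO total RNA (SD, n = 3; log2 fold change 0.01, adjusted p = 0.96), with at most 1.29 CPM in RPF. Tomm6 had at most 1.13 CPM in any library, and Tomm20l had no count in any.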
